A study of Homo sapiens with 11 samples.

Results

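The comparison described here sets the arginine form of p53 codon 72 (R72) against the proline form (P72) in H1299 cells that carry the tumour mutant R175H. H1299 comes from a human lung tumour and lacks endogenous p53, so the transfected construct is its source of the protein. Its members were the libraries whose labels give R175H with R72 (3 libraries, replicates 1, 2 and 4) or R175H with P72 (3 libraries, replicates 1, 2 and 4), 6 of the 11 libraries of the series. The other 5 carry the mutant R273H, 4 with P72 and 1 with R72. All groups received 5 µg of construct DNA and 14 days of neomycin at 800 µg per ml, and the labels call the products stable isogenic lines. Whether the libraries of a form came from 1 transfected line or from several, and whether replicates were separate cultures, was not stated in the labels, so the codon 72 form and the line cannot be told apart, and p-values measure only the spread between libraries. By the labels, batch b1 held 4 libraries, R273H P72 replicates 2, 3 and 4 with R175H R72 replicate 1, and batch b2 the remaining 7. What a batch stands for is not stated.

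As background, p53 is a transcription factor that halts the cell cycle or triggers death after damage, and most tumour mutations change its DNA-binding domain. R175H unfolds the region around the bound zinc ion, whereas R273H removes a contact with DNA. Codon 72 lies outside that domain, in a proline-rich stretch, and both of its forms are common in people.

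Messenger RNA was read at the 3′ end of transcripts. The 6 R175H libraries held 8346926 to 11755450 estimated counts, and values below are counts scaled by the effective library size (CPM). Of the markers of a lung carcinoma line, KRT8 (257 to 300 CPM), KRT18 (656 to 893 CPM), VIM (1247 to 1827 CPM) and CDH2 were present, while EPCAM, CDH1 and KRT19 stayed under 1 CPM. All 8 lung lineage markers were under 1 CPM in all 6 libraries, and 4 of them, SFTPA1, SFTPC, SFTPD and SCGB1A1, were at 0. Summed fibroblast markers lay at 1.79 to 2.75 CPM with P72 and 2.22 to 4.27 CPM with R72, leukocyte markers at 9.68 to 17.1 and 14.6 to 14.9 CPM, endothelial markers at 0.504 to 1.02 and 0.6 to 1.21 CPM, and neuroendocrine markers at 10.4 to 14.2 and 13.6 to 15.7 CPM.

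With R72 on R175H, the genes PDLIM4, TRPM8, SLC7A8 and CTB-78F1.1 went from at most 12 counts in any P72 library to at least 18 in every R72 library. The antisense gene AP003025.2 went the other way, from at least 21 counts in every P72 library to 3, 0 and 0. KLF16, ATP5D, ALKBH7, GPX4, MIF and 11 other genes fell in every fit tried for stability, and most of the remaining calls were small. Of 16324 genes tested, 52 were higher (0.319%) and 133 lower (0.815%) at an adjusted p under 0.05 in edgeR's quasi-likelihood test with batch as a covariate, 185 in all (1.13%). The genes called higher had a median log2 fold change of 0.50 and those called lower of -0.58, against -0.000927 over all genes. Only 5 of the higher and 14 of the lower genes changed at least 2-fold, while 39 and 68 changed under 1.5-fold. Leaving out R175H R72 replicate 2 left 3 higher and 21 lower, and without the batch term 4 were higher (0.0245%) and 2 lower (0.0123%). At an unadjusted p under 0.05 there were 2223 genes, 13.6% of all tested, and 49.9% of all genes had positive values, the shares against which the counts in gene lists below are to be read.

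The sequences before the transcription start are shown for PDLIM4, TRPM8, SLC7A8 and KLF16. The first 3 were chosen because each was higher in every R175H R72 library than in any other library. KLF16 was chosen because it fell in every fit tried, also without the batch term. Each sequence is the 250 bases upstream of the gene's outermost RefSeq start (GRCh38.p14), read 5′ to 3′ on the gene's strand, with CG dinucleotides in capitals. TRPM8 has 6 such starts and SLC7A8 4, of which only the outermost was used, while PDLIM4 and KLF16 have 1 each. Reads at the 3′ end of transcripts do not show which start is in use. The windows are chr5:132257446-132257695 (plus strand) for PDLIM4, chr2:233917123-233917372 (plus) for TRPM8, chr14:23183661-23183910 (minus) for SLC7A8 and chr19:1863580-1863829 (minus) for KLF16.
PDLIM4: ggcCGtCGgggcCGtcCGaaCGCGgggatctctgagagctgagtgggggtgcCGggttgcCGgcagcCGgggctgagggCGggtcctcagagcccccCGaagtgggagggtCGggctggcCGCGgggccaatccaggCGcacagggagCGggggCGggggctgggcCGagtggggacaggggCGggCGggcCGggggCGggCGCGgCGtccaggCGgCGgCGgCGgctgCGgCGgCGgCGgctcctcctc
TRPM8: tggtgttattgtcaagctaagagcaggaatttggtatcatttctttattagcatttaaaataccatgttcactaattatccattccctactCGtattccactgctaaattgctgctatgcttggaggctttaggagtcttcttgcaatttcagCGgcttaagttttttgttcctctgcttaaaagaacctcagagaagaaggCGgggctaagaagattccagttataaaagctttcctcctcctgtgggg
SLC7A8: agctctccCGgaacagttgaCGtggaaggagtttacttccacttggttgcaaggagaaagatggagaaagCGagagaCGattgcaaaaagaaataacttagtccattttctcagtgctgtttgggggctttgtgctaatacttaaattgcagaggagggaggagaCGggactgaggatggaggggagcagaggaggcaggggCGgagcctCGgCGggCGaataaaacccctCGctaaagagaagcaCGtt
KLF16: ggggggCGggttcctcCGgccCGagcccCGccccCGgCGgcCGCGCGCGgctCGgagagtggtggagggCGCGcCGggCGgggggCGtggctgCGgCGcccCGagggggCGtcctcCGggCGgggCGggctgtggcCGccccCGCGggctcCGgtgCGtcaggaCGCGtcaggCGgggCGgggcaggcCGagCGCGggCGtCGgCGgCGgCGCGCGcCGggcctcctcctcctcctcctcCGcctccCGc

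These windows differ widely in base composition. That of PDLIM4 held 33 CG dinucleotides at 81.2% GC, and 7.88% of the 27305 genes with such a window have as many. That of KLF16 held 45 at 86.4% GC, a number that 0.615% of genes reach. The TRPM8 window held 3 at 40% GC, and 30.1% of genes have as few. The SLC7A8 window held 11, next to a median of 10 over all genes. Searched on both strands, GGGCGG occurred 6 times before KLF16, 4 times before PDLIM4, 1 time before SLC7A8 and 0 times before TRPM8, and 42.2% of all windows hold it. TATAAA occurred 1 time, before TRPM8 (11.2% of all windows), and CCAAT 1 time, before PDLIM4 (33% of all windows). The p53 half-site did not occur in these 4 windows, and 5.5% of all windows hold it. These matches describe letters and not binding.

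PDLIM4 (ENSG00000131435, hg38 chromosome 5, 132257671 to 132273454) encodes a PDZ and LIM domain protein of the actin cytoskeleton. It had 0 counts in all 3 P72 libraries and 79, 96 and 70 counts in R72 replicates 1, 2 and 4, which is 9.37, 9.68 and 8.4 CPM. In bulk RNA a gene that is on in few cells and one that is low in all cells cannot be told apart. In the 5 R273H libraries it had 0, 0, 2 and 0 counts with P72 and 1 with R72. The 3 R175H R72 libraries stood above the other 8 with no overlap. Against the level that 3 counts over the whole P72 group would give (0.0904 CPM), PDLIM4 was at least 101-fold higher with R72 (edgeR, adjusted p = 1.2e-06). Of the 9 other tested genes that start within 500 kb, 0 were called by edgeR, DESeq2 or limma-voom, and 1 had an unadjusted p under 0.05.

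TRPM8 (ENSG00000144481, chromosome 2, 233917398 to 234019522), the channel that senses cold and menthol, had 4, 12 and 9 counts with P72 and 77, 84 and 76 with R72. In CPM this was 0.403, 1.02 and 0.798 against 9.14, 8.47 and 9.12, and the R273H libraries lay between 0.933 and 1.99 CPM. All R175H R72 libraries were above every other library, with a log2 fold change of 3.52 (SE 0.31, edgeR adjusted p = 1.26e-06). TRPM8 was the only gene of the 27 tested TRP and calcium channel genes to be called by edgeR, and limma-voom called 1 as well. DESeq2 gave TRPM8 no adjusted p and called 0 of the 27. STIM2, the calcium sensor of the endoplasmic reticulum, came next by p-value at 0.35 (SE 0.11, adjusted p = 0.114). Of the 5 other tested genes within 500 kb of TRPM8, 0 were called by edgeR, DESeq2 or limma-voom and 1 had an unadjusted p under 0.05.

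SLC7A8 (ENSG00000092068, chromosome 14, 23125295 to 23183674) encodes a light chain of the transporters that exchange large neutral amino acids. Its counts were 3, 0 and 4 with P72 and 27, 44 and 23 with R72, or 0.302, 0 and 0.355 against 3.2, 4.44 and 2.76 CPM. In the R273H libraries it stayed at 0 to 0.317 CPM. The log2 fold change was 4.05 (SE 0.69, edgeR adjusted p = 0.00342), and the call held in 10 of 11 fits that left out 1 library, the exception being the fit without R175H R72 replicate 2. The antisense gene CTB-78F1.1 (ENSG00000254187, chromosome 5, 167653228 to 167660481), named after its values were seen, had 19, 18 and 18 counts with R72 and 0 in each of the other 8 libraries. It was at least 23-fold higher over the same floor (edgeR adjusted p = 0.0068). At counts this low the fitted fold changes of PDLIM4 and CTB-78F1.1 depend on the fit's prior and are not given. Calls for PDLIM4, TRPM8, SLC7A8 and CTB-78F1.1 held without the batch term, with adjusted p-values of 5.82e-06, 5.82e-06, 0.0388 and 0.0466. That of CTB-78F1.1 was lost without R175H R72 replicate 2.

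The reverse pattern was seen in AP003025.2 (ENSG00000237654, chromosome 11, 131502759 to 131540867), an antisense gene also named after its values were seen. It had 21, 47 and 33 counts with P72 and 3, 0 and 0 with R72, and 0 or 1 in each R273H library. The 3 R175H P72 libraries were thus the high ones among all 11. It was called lower (edgeR adjusted p = 0.00227), in batch b2 alone, after GC correction and without the batch term (adjusted p = 0.0373), but not without R175H R72 replicate 2. The small nucleolar RNA gene SNORD118, likewise named after its values were seen, was called lower too (edgeR adjusted p = 0.00608), with 42, 23 and 18 counts with P72 and 31, 0 and 0 with R72. Replicate 1 with R72 lay inside the P72 range, all R273H libraries had 0 counts, and without the batch term the adjusted p was 0.907. The fitted fold changes of both depend on the prior, and SNORD118 shares exonic sequence with TMEM107.

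**Figure D1:**
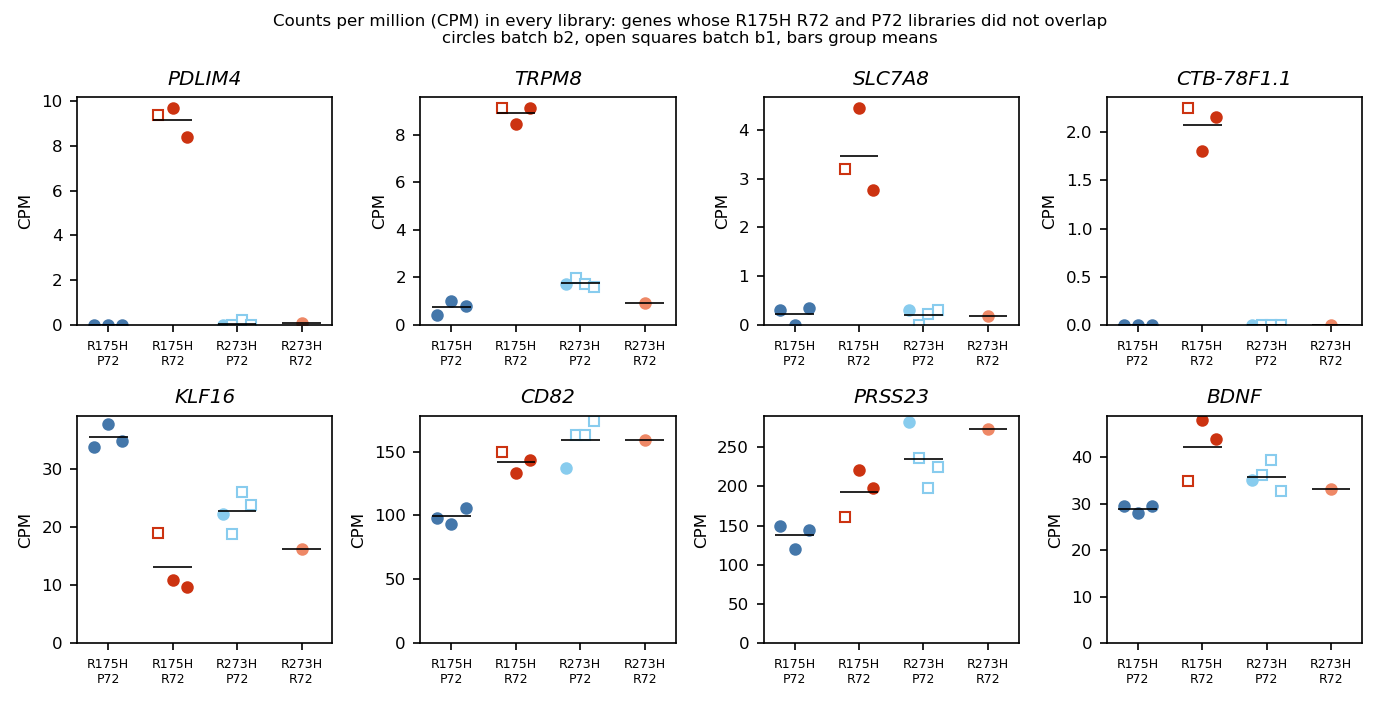
Level in CPM (vertical axis, from 0) of 8 genes in each of the 11 libraries, in columns by hotspot mutant and codon 72 form. Circles are batch b2, open squares batch b1 and bars group means. In PDLIM4, TRPM8, SLC7A8 and CTB-78F1.1 the 3 R175H R72 libraries stand above the other 8. In KLF16, CD82, PRSS23 and BDNF the R175H forms do not overlap, while R273H libraries reach or pass the level of R175H R72 or lie between the forms.

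KLF16 (ENSG00000129911, chromosome 19, 1852399 to 1863568), a zinc finger factor of the SP and KLF family that binds GC-rich promoters, fell in every fit tried. It had 33.7, 37.7 and 34.7 CPM with P72 and 19, 10.9 and 9.6 CPM with R72. The highest R72 library, replicate 1 of batch b1, was still well below the lowest P72 library. The R273H libraries lay at 22.3, 18.8, 26 and 23.8 CPM with P72 and at 16.2 CPM with R72, all below the R175H P72 libraries. The log2 fold change was -1.58 (SE 0.17, edgeR adjusted p = 6.83e-05), and KLF16 was called in every one of the 11 fits that left out a library, after GC correction (-1.29) and without the batch term (adjusted p = 0.0147). Of the 16 tested members of the SP and KLF family it was the 1 called by edgeR and limma-voom (2 by DESeq2), with 4 at an unadjusted p under 0.05 and a median of -0.06. KLF2 had a positive value of 0.38 (adjusted p = 0.0684). Within 500 kb of KLF16, 1 of 39 other tested genes was called, NDUFS7, a complex I subunit, at -0.54. NDUFS7 was not called after GC correction (edgeR adjusted p = 0.417) or in batch b2 alone.

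To see which calls did not hang on 1 choice, a gene was counted as stable when it was called in the fit over all libraries, in batch b2 alone, after a correction for GC content and in each of the 11 fits that left out a library. This held for 18 genes, PDLIM4 and TRPM8 (higher) and 16 that fell. The 16 serve translation (EIF3G, EIF5A), transcription (POLR2J, KLF16), mitochondria (ATP5D, ALKBH7, C12orf10), peroxide removal (GPX4), signalling and trafficking (MLST8, GAK, TNIP1, PHPT1, MIF), chaperoning (SGTA), microtubules (EML3) and tetraspanin membranes (TSPAN4). The number rests on the batch term as well, since KLF16, PDLIM4 and TRPM8 alone of the 18 were called without it.

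ATP5D, the delta subunit of mitochondrial ATP synthase, had 25.3, 31.4 and 27.8 CPM with P72 and 20.4, 13.1 and 9.6 CPM with R72. Its groups did not overlap, and it was 2.28-fold lower (edgeR adjusted p = 6.6e-04). ALKBH7, a mitochondrial dioxygenase, had 15.3, 19.3 and 16.7 CPM against 12.2, 5.24 and 5.28 CPM, again without overlap and 2.74-fold lower (edgeR adjusted p = 6.6e-04). GPX4, the enzyme that reduces lipid peroxides and protects cells from ferroptosis, had 77, 92.9 and 76.6 CPM against 76.9, 52.3 and 49 CPM. Here R72 replicate 1 lay among the P72 libraries, and the fitted difference was 1.61-fold (log2 fold change -0.69, SE 0.10, edgeR adjusted p = 7.36e-04). GPX4 and ALKBH7 were the 2 called among 23 tested genes of the GPX4 and thiol peroxidase list, whose median was -0.05. The list includes ALKBH7 although it is a dioxygenase. Of the 23, 14 were negative and 9 had an unadjusted p under 0.05, a larger share than the 13.6% of all genes.

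MIF, a secreted cytokine, was the most abundant of the stable genes, at 352, 401 and 397 CPM with P72 and 345, 221 and 188 CPM with R72. The highest R72 library was just under the lowest P72 library, and the log2 fold change was -0.85 (SE 0.10, edgeR adjusted p = 7.97e-05). EIF3G, a subunit of the initiation factor eIF3, had 200, 209 and 207 CPM against 198, 123 and 134 CPM. EIF5A, the factor that carries hypusine and aids elongation, had 329, 342 and 328 CPM against 261, 206 and 232 CPM. Neither gene's groups overlapped, and the log2 fold changes were -0.67 and -0.59. EIF5A has near-identical copies that can share reads, and EIF3G overlaps P2RY11 on the other strand, so both values are uncertain to that extent, as is EIF5A for its overlap with GPS2. The sources used here do not state if reads were counted by strand.

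POLR2J, a small subunit of RNA polymerase II, had 77.9, 89.2 and 81.9 CPM with P72 and 75.4, 46.9 and 46 CPM with R72 (log2 fold change -0.78, SE 0.10). POLR2I, a further small subunit, had 136, 166 and 137 CPM against 160, 72 and 78.3 CPM, so that replicate 1 with R72 was as high as the P72 libraries (log2 fold change -0.86, SE 0.13). These were the 2 that edgeR called of the 12 subunits, both lower, while DESeq2 and limma-voom each called 3. Of the 12, 4 had positive values, the median was -0.08 and 5 had an unadjusted p under 0.05. POLR2B, a large subunit that forms part of the catalytic site, stood at 0.16 (adjusted p = 0.439). POLR2J has near-identical copies and overlaps LRWD1, and POLR2I overlaps TBCB. Of 30 tested Mediator subunits MED16 fell (-0.58, edgeR adjusted p = 0.0441), and the median was -0.06. MED16 was not called after GC correction (edgeR adjusted p = 0.343) or in batch b2 alone. Of the 11 fits that left out a library, 2 called it. Its level in R72 replicate 1, 16.4 CPM, lay inside the P72 range of 15.6 to 18.2 CPM.

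The other stable genes had the same shape. GAK, a kinase that helps uncoat clathrin vesicles, had 172, 159 and 151 CPM with P72 and 172, 95.9 and 85.7 CPM with R72 (log2 fold change -0.74, SE 0.10). PHPT1, a phosphohistidine phosphatase, had 93, 93.2 and 82.8 CPM against 83.3, 48.6 and 45.4 CPM. In both genes R72 replicate 1 lay within the P72 range and replicates 2 and 4 far below it. TNIP1, a protein that binds A20 and restrains NF-kB, had 85.9, 92.3 and 88.2 CPM against 78.3, 57.4 and 50.8 CPM, without overlap (log2 fold change -0.63, SE 0.10). EML3 and C12orf10 had 20.9 and 66.7 CPM in R72 replicate 1, within their P72 ranges of 19.6 to 21.6 and 66.3 to 77.6 CPM, and 7.97 to 8.76 and 38.9 to 40.2 CPM in the others.

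**Figure D2:**
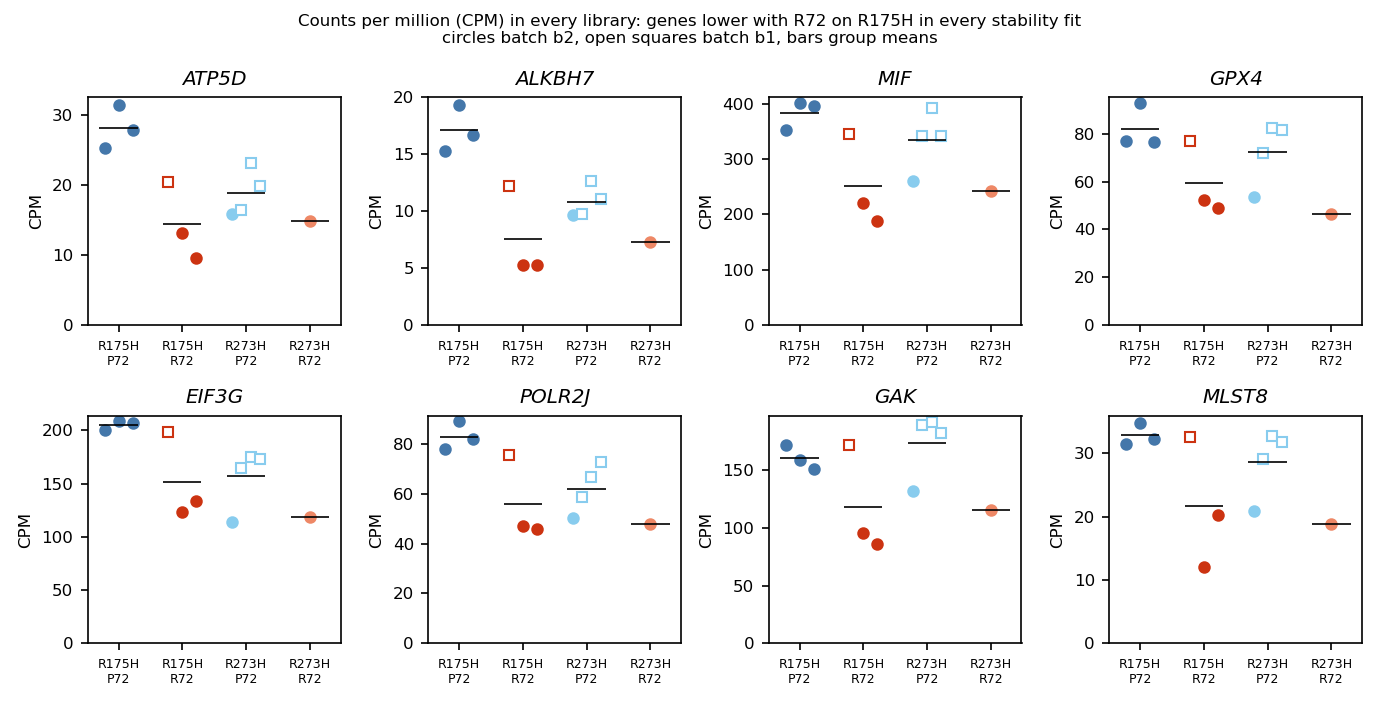
Level in CPM (vertical axis, from 0) in each of the 11 libraries for 8 of the 16 genes that were lower with R72 on R175H in every stability fit. Circles are batch b2, open squares batch b1 and bars group means. R175H R72 replicates 2 and 4 are below the P72 libraries in all 8 genes, R175H R72 replicate 1 is close to them in EIF3G, GAK, GPX4, MIF, MLST8 and POLR2J, and both R273H libraries of batch b2 are below the R175H P72 libraries in all 8.

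The library pattern in those genes was common to the calls. For the 133 genes called lower, the median log2 ratio to the P72 mean was -0.65 and -0.61 in R72 replicates 2 and 4, where all 133 were below every P72 library. In R72 replicate 1, the library of batch b1, it was -0.09. There 61 of the 133 were below every P72 library and 16 were above every P72 library. In the R273H libraries of batch b2 the median was -0.57 (P72 replicate 1) and -0.58 (R72), and 127 and 133 of the genes were below every R175H P72 library. The R273H P72 libraries of batch b1 had medians of -0.31, -0.18 and -0.25. In these, 84 to 100 of the genes were below every R175H P72 library and 12 to 22 above. The genes were chosen for high values in R175H P72, so lower ratios elsewhere are partly built in by that choice and are a description only. The batch term of the fit rests on R273H P72 and R175H R72, the groups that span both batches, and it is what places R72 replicate 1 with the other R72 libraries. In batch b2 alone, 2 R72 against 3 P72 libraries, 35 genes were higher (0.217%) and 101 lower (0.627%), and 103 of the 185 calls were shared.

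For the 52 genes called higher the medians were 0.60 and 0.42 in R72 replicates 2 and 4 and 0.22 in replicate 1. In replicate 1, 38 were above every P72 library and 5 below every P72 library. R273H P72 replicate 1 and the R273H R72 library stood at 0.56 and 0.46. All R72 libraries were above all P72 libraries for those 38, as for 6.81% of all genes tested, and below them for 61 of the 133 lower genes, as for 6.15% of all genes. Only 8 called genes had all 3 R175H R72 libraries outside the other 8, 7 above (PDLIM4, TRPM8, SLC7A8, CTB-78F1.1, SLC20A1, GPAT3 and MT-TP, 0.637% over all genes) and 1 below (FAM149B1, 0.484% over all genes), against 1.12% of all genes for both.

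**Figure D3:**
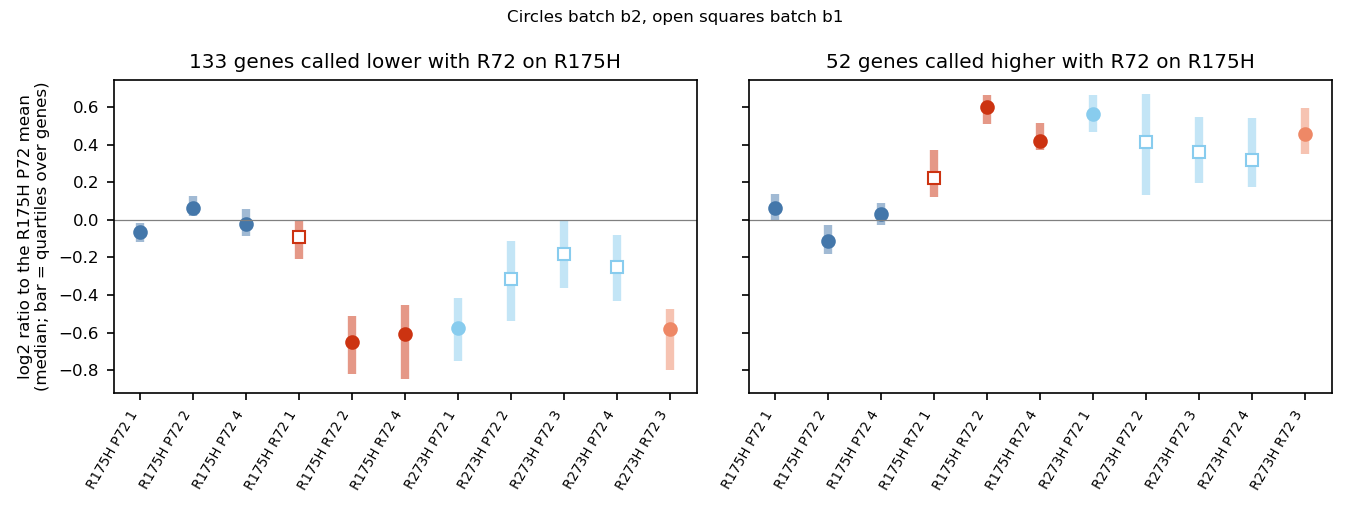
Median log2 ratio to the R175H P72 mean (vertical axis) over the 133 genes called lower and the 52 called higher with R72 on R175H, in each of the 11 libraries (horizontal axis). Bars span the quartiles over genes, circles are batch b2 and open squares batch b1. R175H R72 replicates 2 and 4 lie at -0.65 and -0.61 in the lower set, R175H R72 replicate 1 at -0.09, and the R273H libraries of batch b2 at -0.57 and -0.58.

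The lower genes also shared a base composition. The last 500 nt of their transcripts had a median GC content of 60.9%, those of the higher genes 40.6% and those of all tested genes 46.2%. When genes were divided into 5 bins of about equal size by this GC content, the lower calls numbered 0, 1, 3, 14 and 115 from the poorest to the richest, and the higher calls 24, 11, 10, 5 and 2. Over all genes, log2 CPM changed per 10% of GC by 0.00495 to 0.026 in the P72 libraries, by 0.0716 in R72 replicate 1 and by -0.0855 and -0.0521 in R72 replicates 2 and 4. The R273H libraries of batch b2 had slopes of -0.0561 and -0.0809 and those of batch b1 0.0433 to 0.0591. After each library's GC trend was removed, 15 genes were higher (0.0919%) and 43 lower (0.263%), and 56 of the original calls were among them, 13 higher and 43 lower. Of the lower calls 44 of 133 (33.1%) came from chromosome 19 (7.47% of all tested genes do), and after correction 16 of 43.

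**Figure D4:**
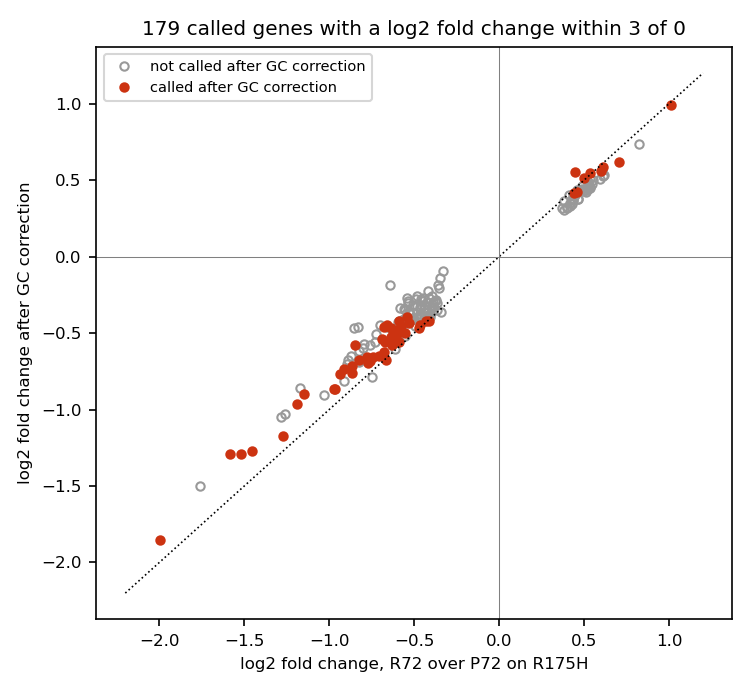
Log2 fold change of R72 over P72 on R175H before (horizontal axis) and after (vertical axis) removal of each library's GC trend, for 179 called genes within 3 of 0. Filled points were still called after the correction, and the dotted line marks equal values. The 6 called genes beyond 3 are left out. Most genes called lower lie above the line, closer to 0 after correction, and KLF16 moves from -1.58 to -1.29.

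Over the 35 gene lists together, 1159 genes were tested, each counted once. Of these edgeR called 41, limma-voom 42 and DESeq2 67. Of edgeR's 41, 16 were called after GC correction, 28 in batch b2 alone, 8 in all 11 fits that left out a library and 3 without the batch term. Counts of called list members below are edgeR's unless another tool is named.

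In nutrient signalling and autophagy, the called genes were all lower and few. The mTOR complex subunit MLST8 had 31.4, 34.8 and 32.3 CPM with P72 and 32.5, 12.1 and 20.3 CPM with R72, replicate 1 lying with the P72 libraries (log2 fold change -0.94, SE 0.15, edgeR adjusted p = 0.00342). RPS6KB2, an S6 kinase downstream of mTORC1, fell by 0.59 and NPRL3, a subunit of the GATOR1 complex that restrains mTORC1, fell by 0.52, so members with opposite roles were lower. For RPS6KB2, R72 replicate 1 had 67.2 CPM, just above the P72 range of 54.8 to 67 CPM. MLST8, RPS6KB2 and NPRL3 were the 3 called of 43 genes, with a median of -0.07, and 1 was called after GC correction. DESeq2 called 4 and limma-voom 3. Of the 43, 28 were negative and 11 had an unadjusted p under 0.05, a larger share than the 13.6% of all genes. ATG4D, a protease that processes ATG8 proteins, went from 26.7, 32.5 and 23.7 CPM to 13.3, 3.73 and 7.32 CPM without overlap (log2 fold change -2.00, SE 0.32). The ATG8 genes MAP1LC3A and MAP1LC3B fell as well, by 0.66 and 0.34. MAP1LC3B went from 320, 347 and 304 CPM to 249, 251 and 248 CPM, and its groups did not overlap. The autophagy list had 3 of 38 members called lower, 6 at an unadjusted p under 0.05 and a median of -0.06. After GC correction ATG4D was still called, while MAP1LC3A (adjusted p = 0.21) and MAP1LC3B (adjusted p = 0.0653) were not. Of the 11 fits that left out a library, 6 called ATG4D and 5 each of the others. ATG4D overlaps KRI1 and MLST8 overlaps BRICD5 on the opposite strand, and MAP1LC3B has a near-identical copy.

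Genes for folding in the endoplasmic reticulum and for lysosomes were mostly on the higher side, at small sizes. QSOX2, a sulfhydryl oxidase that forms disulfides, had 15.2, 15.3 and 17.2 CPM with P72 and 18.5, 24.8 and 25 CPM with R72 (log2 fold change 0.61, SE 0.12, edgeR adjusted p = 0.0141). It was the 1 called by edgeR and limma-voom of 27 genes for disulfide formation and folding in the endoplasmic reticulum, of which DESeq2 called 5. QSOX2 was still called after GC correction. Of the 27, 24 had positive values, with a median of 0.18 before and 0.15 after GC correction, and 8 had an unadjusted p under 0.05, a larger share than the 13.6% of all genes. The chaperone HSP90B1 (0.33, adjusted p = 0.0899) and the disulfide isomerase PDIA3 (0.35, adjusted p = 0.114) did not pass. LAMP2, a lysosomal membrane protein, rose by 0.43 and CTSC, a lysosomal protease, by 0.47, the 2 called of 47 lysosomal genes, of which 34 were positive (median 0.09), DESeq2 called 4 and limma-voom 1. Neither was called after GC correction. For LAMP2, R72 replicate 1 had 168 CPM, just under the P72 range of 169 to 191 CPM. In the coat and Arf machinery of the Golgi, COPE, a coatomer subunit, fell by 0.91 and ARFGAP1, an Arf1 GTPase activator, by 0.48. They were the 2 called of 52 tested, and COPE was still called after GC correction. R72 replicate 1 had 28 CPM for COPE, above the P72 range of 25.9 to 27.6 CPM. For ARFGAP1 it had 39.6 CPM, inside the P72 range of 36.7 to 42 CPM.

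Among lipid and amino acid genes all calls were higher, and of these SLC7A8 alone was still called after GC correction. SPTLC1, a subunit of serine palmitoyltransferase, had 22.2, 15.7 and 18.8 CPM with P72 and 29.1, 27.6 and 27.5 CPM with R72, with no overlap (log2 fold change 0.55, SE 0.13, edgeR adjusted p = 0.0413). It was the 1 called of 26 sphingolipid genes, 20 of them positive, with a median of 0.19. The choline transporter SLC44A1 rose by 0.55 and GPAT3, which makes lysophosphatidic acid, by 0.46, the 2 called of 31 choline and phospholipid genes. SLC44A1 had 63, 57.6 and 80 CPM with P72 and 53, 109 and 85.3 CPM with R72, so R72 replicate 1 was below every P72 library. After GC correction the adjusted p-values of SPTLC1, SLC44A1 and GPAT3 were 0.122, 0.0886 and 0.0614. SPTLC1 was called in 3 of the 11 fits that left out a library and SLC44A1 in 5, and neither was called in batch b2 alone. GPAT3 had 119, 101 and 110 CPM with P72 and 126, 159 and 150 CPM with R72, and all R273H libraries were at or under 116 CPM. Besides SLC7A8, 0 of the 23 amino acid transporter genes passed edgeR's test, 8 of the 23 had an unadjusted p under 0.05 and 20 were positive (median 0.26). DESeq2, which gave SLC7A8 no adjusted p, called 3 of the 23. The cystine transporter SLC7A11 came closest at 0.37 (SE 0.09, adjusted p = 0.0619).

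Secreted or surface ligands and proteases supplied several of the higher calls, most of which did not pass after GC correction. EFNB2, the ephrin-B2 ligand, had 12.4, 8.61 and 8.6 CPM with P72 and 18.5, 19 and 17.4 CPM with R72. These groups did not overlap (log2 fold change 0.82, SE 0.17, edgeR adjusted p = 0.0149), but R273H P72 libraries reached 22.3 CPM. It was the 1 called of 16 ephrin and Eph genes, and the receptor EPHA5 had a value of 1.79 (SE 0.57) at under 2 CPM and an adjusted p of 0.138. BDNF, a neurotrophin, had 29.4, 27.9 and 29.5 CPM against 34.9, 47.9 and 43.9 CPM, with no overlap. It was the 1 called of 33 growth factor and receptor kinase genes. SEMA3C, a secreted semaphorin, rose by 0.60, with the R72 library of batch b1 at 34.5 CPM inside the P72 range of 24 to 36.3 CPM. PRSS23, a secreted serine protease, had 149, 120 and 145 CPM against 161, 221 and 198 CPM (log2 fold change 0.60, SE 0.10, edgeR adjusted p = 0.00227). ADAM17, which sheds surface proteins, rose by 0.37, and these were the 2 called by edgeR and limma-voom of 27 extracellular proteases and inhibitors, against 5 by DESeq2. After GC correction PRSS23 was still called, and EFNB2, BDNF, SEMA3C and ADAM17 had adjusted p-values of 0.0585, 0.0563, 0.0894 and 0.138. BDNF overlaps BDNF-AS, PRSS23 overlaps FZD4 and ADAM17 overlaps IAH1 on the opposite strand.

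CD82, a tetraspanin known as a suppressor of metastasis and named after its values were seen, was higher in spite of a GC-rich 3′ end (59.2%). It had 98.2, 93.5 and 106 CPM with P72 and 150, 133 and 143 CPM with R72, all R72 libraries well above the P72 ones. The log2 fold change was 0.45 (SE 0.09, edgeR adjusted p = 0.00913) and 0.55 after GC correction. The R273H libraries stood at 137 to 174 CPM, as high as R175H R72. TSPAN4, a further tetraspanin, fell by 0.66, from 101, 107 and 100 CPM to 95.9, 61.7 and 67.6 CPM. In the matrix lists, PLOD2, a lysyl hydroxylase of collagen, rose by 0.46 as the 1 called of 28 collagen genes, and was not called after GC correction (adjusted p = 0.126). Of 28 integrin genes 0 were called by edgeR or limma-voom and 2 by DESeq2. Of these 28, 10 had an unadjusted p under 0.05, ITGAV (0.43, adjusted p = 0.0868) first, against 13.6% of all genes tested.

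Calls were few in each list of the cell cycle and of protein quality control. At an unadjusted p under 0.05 there were 12 of 49 replication, 15 of 49 spindle and 13 of 53 chaperone genes. Of the spindle genes 35 were positive, and of the chaperone genes 36 were negative. Microtubule, import, BCL2 family and presentation lists had 11 of 47, 8 of 39, 4 of 18 and 5 of 15. All these shares were above the 13.6% of all genes tested, and 4 of 47 ubiquitin-like conjugation genes was below it. CDT1, which licenses replication origins, had 215, 197 and 165 CPM with P72 and 161, 120 and 138 CPM with R72, and POLD1, the catalytic subunit of DNA polymerase delta, went from 9.32 to 5.7 CPM. They fell by 0.57 and 0.79, the 2 called of 49 replication genes, of which 32 were positive. The mitotic checkpoint kinase BUB1 rose by 0.41, the 1 called by edgeR and limma-voom of 49 spindle genes (4 by DESeq2), with 61.2, 102 and 84.1 CPM with R72 around 64.2 to 68.9 CPM with P72. The cochaperone SGTA, which hands tail-anchored proteins on, went from 55.6, 70 and 69.3 CPM to 61.7, 31.6 and 31.8 CPM (log2 fold change -0.97, SE 0.12). FKBP8, an immunophilin of the mitochondrial surface, and HSPBP1, an HSP70 exchange factor, fell by 1.26 and 0.48, and 3 of 53 chaperone genes were called. UBE2M, the NEDD8 conjugating enzyme, CDC34, a ubiquitin conjugating enzyme, and the modifier ISG15 fell by 0.68, 0.42 and 0.89 among 47 genes. For CDC34, R72 replicate 1 had 254 CPM, above the P72 range of 216 to 247 CPM. BAD, a death-promoting BCL2 relative, fell by 0.66 among 18, EML3, a microtubule-binding protein, by 1.15 among 47 tubulin and microtubule genes, and C19orf70, a MICOS subunit, by 0.97 among 39 import genes. B2M, the light chain of MHC class I, rose by 0.51 among 15 presentation genes. Of the 13 genes in these sentences, SGTA, UBE2M, EML3 and C19orf70 were still called after GC correction, and the other 9 had adjusted p-values of 0.0752 (ISG15) to 0.399 (HSPBP1).

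Several pathways held no call. Of 15 p53 regulators and relatives, 34 of the spliceosome, 47 of the proteasome, 46 OXPHOS assembly factors and 26 of the YAP and TEAD pathway, 0 were called by edgeR, DESeq2 or limma-voom. At an unadjusted p under 0.05 there were 1, 3, 5, 5 and 5, a smaller share than the 13.6% of all genes in each but the YAP and TEAD pathway. Of 42 TGF-beta and BMP genes and 58 of DNA damage checkpoints and repair, edgeR called 0, limma-voom 1 of each and DESeq2 1 of each, and 8 and 11 had an unadjusted p under 0.05. MDM2, the ligase that degrades p53, stood at 0.13 (SE 0.10) and the cell cycle inhibitor CDKN1A at -0.16 (SE 0.11), with edgeR adjusted p-values of 0.599 and 0.594.

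**Figure D5:**
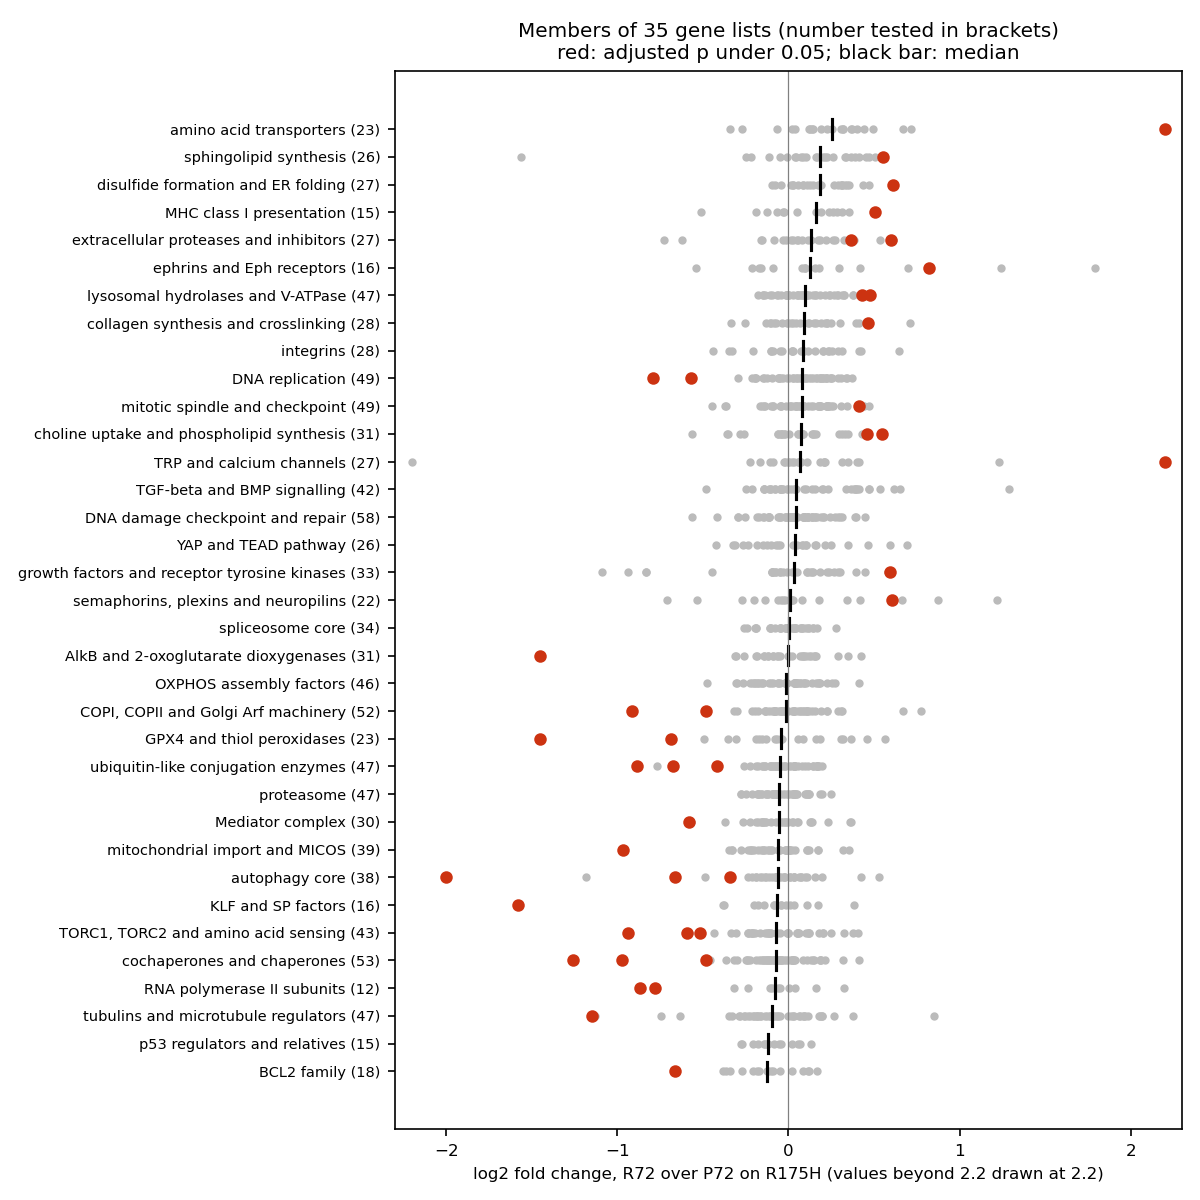
Log2 fold change of R72 over P72 on R175H (horizontal axis) for the tested members of 35 gene lists (vertical axis, number tested in brackets), ordered by their medians (black bars). Red points passed an adjusted p under 0.05, and values beyond 2.2 are drawn at 2.2. Medians run from -0.12 (BCL2 family) to 0.26 (amino acid transporters), and no list has more than 3 called members.

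Among calls at 10 CPM or more on average, those from below the first 12 down to rank 25 by fold differed by 1.39-fold to 1.83-fold. On the lower side they were DAPK3 (1.83-fold), POLR2I, DPM2, MIF, SCAND1, VPS51, PHPT1, ASL, SLC25A10, POLR2J, SKIV2L, C12orf10 and GAK (1.67-fold). On the higher side they ran from NUP98 and CLU (both 1.45-fold) through SMIM11B, TM2D3, ANKRD36, IL13RA1, SLC30A1, B2M, MAGT1, SLC39A14, ZNF224 and TOR1AIP1 to CTSC (1.39-fold). SLC39A14, a zinc and iron importer, and SLC30A1, the zinc exporter of the plasma membrane, were both among them at 1.41-fold and 1.43-fold. For SLC39A14, R72 replicate 1 had 55.2 CPM, below the P72 range of 60.2 to 77 CPM. Above those ranks lay RPL18 (2.41-fold) and C19orf60 (1.86-fold) among the lower genes. Among the higher genes TMEM200A (1.63-fold), MT-TP (1.53-fold), SSFA2 (1.52-fold), MFSD8 and FKBP14 (both 1.45-fold) lay there too. TMEM200A was separate between the forms, with 25.6, 21.5 and 27.4 CPM against 31.6, 44.8 and 37.8 CPM, and was also called after GC correction (0.62). Opposite-strand overlaps also touch ALKBH7 (PSPN), EML3 (ROM1), C19orf70 (HSD11B1L), BAD (GPR137), RPL18 (SPHK2) and SKIV2L (NELFE), and PHPT1 shares exonic sequence with C9orf172 and MAMDC4 on its own strand.

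Whether an R72 effect differed on R273H was tested by the interaction of form and hotspot, with the single R273H R72 library assumed to vary like the others. It was called for 5 of 16324 genes (0.0306%), of which 4 were also called on R175H. Every value of this test rests on that 1 library, whose own spread is not known. Without R175H R72 replicate 2 it called 0 genes, and DESeq2 called 138. TRPM8 differed by -4.38 on the log2 scale (edgeR adjusted p = 0.0101), having 1.59 to 1.99 CPM in the R273H P72 libraries and 0.933 CPM in the R273H R72 library. Its adjusted p was 0.251 with the replicate number as a block and 0.0886 without R175H R72 replicate 2. For PDLIM4, SLC7A8 and KLF16 the adjusted p-values of the difference were 0.186, 0.284 and 0.138, so an unequal effect of R72 on the 2 mutants was not shown for them. The difference was -4.51 (SE 1.55) for SLC7A8 and 1.37 (SE 0.32) for KLF16, and for PDLIM4, with 3 counts in all R273H libraries together, its size is not given.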

How the data were processed

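Messenger RNA of 11 H1299 libraries was measured by Lexogen QuantSeq 3′ sequencing with single 75 bp reads, per the labels' protocols. The deposited values are estimated counts per gene, all whole numbers, and the authors' tools were Bowtie2, RSEM 1.2.12 and DESeq2 on hg38, per the submitters' processing notes. Their settings are not given there. RSEM shares out reads that match several genes, so values of near-identical genes are uncertain.

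Columns were matched to libraries by title. Of 45965 genes, 16324 passed filterByExpr (minimum count 10, minimum total 15). Counts were scaled by TMM and fitted with edgeR 4.0.16 (R 4.3.3, robust quasi-likelihood) as 4 group means plus batch over all 11 libraries, with Benjamini-Hochberg adjustment over all genes and a threshold of 0.05. Totals were 8346926 to 11755450 in the R175H libraries, and the median SE of a log2 fold change was 0.113 at a mean of at least 10 CPM. The counts of all 6 replicate pairs within R175H forms differed by more than sampling noise (4.38 to 17.3 as chi-square over degrees of freedom), and none was counted as a duplicate. Replicate numbers did not pair the libraries.

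Genes were named if called in the fit over all libraries, in batch b2 alone, after GC correction and in all 11 fits that left out a library, if among the 12 largest folds each way at a mean of at least 10 CPM (to rank 25 by fold only), if called in 1 of 35 gene lists or among its 2 smallest p-values, and MDM2 and CDKN1A. Not every gene this rule took is printed, and a gene that the rule took is not reported here. The comparison, the 35 lists, the 6 marker lists and the rule were chosen with earlier results of these data known. Lists are described by counts and medians and were not tested as sets. For the GC correction, GC content was taken over the final 500 nt of transcripts (GENCODE 29), each library's deviation in log2 CPM was fitted on it (natural spline with 5 degrees of freedom), and the fit entered as offsets, and 16029 of the tested genes had a GC value. Coordinates are 1-based from GENCODE 29. Promoter sequences came from RefSeq (GRCh38.p14), all 4 genes looked up were matched, and the 50 bases after the start were not used. The alternatives were DESeq2 1.42.0 and limma-voom (limma 3.58.1), scaling by RLE or by library totals, no filter or one that asks for 10 CPM in 3 libraries, a fit with the replicate number as block or with no batch term, batch b2 alone, the R175H libraries alone, leaving out each library, and the GC correction. On simulated counts with 200 changed genes of 15936, the comparison recovered 77% of 1.5-fold and 98% of 2-fold changes, with 23 false among 198 calls. That false share was above the share that the adjusted p threshold allows. The rates describe the simulated counts only. Whether they hold under the batch and GC differences between the real libraries was not shown.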

Additional observations from a re-analysis of the deposited data

Results flagged for a closer look

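By edgeR's interaction test the R72 effect was called different between the hotspot mutants for 5 genes. The R273H R72 arm holds 1 library, assumed to vary like the other groups, and without R175H R72 replicate 2 the test called 0 genes. The effect on R273H minus that on R175H was -4.38 for TRPM8, -1.28 for SMIM11B, -1.01 for TUBA1B, 0.985 for SNHG25 and 1.08 for MAF1 on the log2 scale, with adjusted p-values of 0.0101, 0.0432, 0.0384, 0.032 and 0.032. TUBA1B, an alpha-tubulin, had 1085, 965 and 933 CPM with P72 and 876, 1132 and 1117 CPM with R72 on R175H, and 1313 to 2046 CPM with P72 and 1134 CPM with R72 on R273H. MAF1, a repressor of RNA polymerase III, had 87.3 to 98.7 CPM with P72 and 91, 58 and 62.9 CPM with R72 on R175H, and 49.5 to 70.6 and 66.4 CPM on R273H. SNHG25, a host gene of small nucleolar RNA, had 2251 to 2396 CPM with P72 and 2443, 1652 and 1685 CPM with R72 on R175H, and 1181 to 1700 and 1636 CPM on R273H. SMIM11B had 28 to 40.6 and 41.7 to 53.2 CPM on R175H, and 48.8 to 56.3 and 34.8 CPM on R273H. Near-identical copies can take reads from both SMIM11B and TUBA1B. After GC correction TRPM8 was the 1 still called (-4.37), and with the replicate number as a block its difference was -4.3 with an adjusted p of 0.251. TRPM8 was also not called without R175H R72 replicate 2 (-4.44, adjusted p = 0.0886), and DESeq2 gave it no adjusted p.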

How the results depend on the processing

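The counts of calls moved with the processing. Against 52 higher and 133 lower genes, DESeq2 gave 133 and 200, no filter on low counts 229 and 335, GC correction 15 and 43, GC correction in batch b2 alone 11 and 50, and no batch term 4 and 2. The filter at 10 CPM gave 79 higher. With 1 library left out, the higher calls ran from 3 (without R175H R72 replicate 2) to 91 (without R175H R72 replicate 1) and the lower calls from 21 (without R175H R72 replicate 2) to 183 (without R273H P72 replicate 1). Without R175H P72 replicate 2 there were 8 and 44, without R175H R72 replicate 4 87 higher, without R273H P72 replicate 1 89 higher, without R273H P72 replicate 3 28 and 80, and without R273H P72 replicate 4 32 higher. The cause was not tested, other than that some fits hold fewer samples.

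The interaction was called for 5 genes, and for 138 by DESeq2, 12 by limma-voom, 196 without a filter, 1 after GC correction and 1 without the batch term. With 1 library left out it was called for 0 (without R175H R72 replicate 2) to 48 (without R273H P72 replicate 1). It could not be fitted without the R273H R72 library.

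Replicate numbers were shared by the forms, but same-numbered libraries deviated together with correlations of 0.0543, -0.00351 and 0.146, which do not pair them, and not every library correlated best with its own number. With the replicate number as a block, 13 genes were higher and 68 lower, 71 of them shared with the 185, and the interaction was called for 2. The replicate block with GC correction gave 5 higher, 34 lower and 2 for the interaction.

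All 110 genes the rule named kept their sign under all alternatives that gave them an adjusted p. Most of them were chosen for calls or small p-values in the fit over all libraries. The alternatives share its libraries, so the kept signs are partly built in by that choice. Of 2624 values, 521 fell short of the threshold where the gene was called, 72 of them without the batch term. DESeq2 gave no adjusted p for 18 of the 185 calls, among them PDLIM4, TRPM8 and SLC7A8. Depth limits PDLIM4, TRPM8, SLC7A8 and CTB-78F1.1, whose R72 libraries held 96 counts or fewer each.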
